A study of Mus musculus with 9 samples.

Results

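Transcripts of the ISG15 conjugation pathway and of 5 further interferon effectors were followed in sorted intestinal epithelial cells (IECs) after activation of natural killer T (NKT) cells in mice. The 10 genes were Isg15, Usp18, Uba7, Ube2l6, Herc6, Rsad2, Ifi44, Ifi35, Bst2 and Eif2ak2, chosen by name, and each was found by its mouse Ensembl identifier among the 29288 genes of the count table. All 10 were also among the 18933 genes with enough counts to be tested. Female wild-type (WT) C57BL/6J mice were used, and live cells of proximal small intestinal crypts were sorted as EpCAM+, CD45-, CD31- and Ter119- cells. Control mice received PBS intraperitoneally and were sampled at 18 h. The αGalCer mice received 2 µg of α-galactosylceramide, a glycolipid antigen presented to NKT cells by CD1d, and the 18h-αGal group was sampled at 18 h and the 72h-αGal group at 72 h. Each of the 3 groups had 3 mice. The study's methods give an age of 7 to 10 weeks for its mice in general. No control labelled 72 h was analysed here, so treatment and sampling time cannot be told apart where 72h-αGal is set against control.

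ISG15 is a small ubiquitin-like protein that is made in response to interferons and is joined to other proteins by an enzyme cascade. Uba7 encodes its activating enzyme (E1), Ube2l6 its conjugating enzyme (E2) and Herc6 the main ligase (E3) in mice, while Usp18 encodes the protease that removes ISG15 and also restrains signalling at the type I interferon receptor. The other 5 genes act outside that cascade: Rsad2 encodes viperin, an antiviral radical-SAM enzyme, Bst2 encodes tetherin, which holds budding virions at the cell surface, Eif2ak2 encodes PKR, a kinase that senses double-stranded RNA and halts translation through eIF2α, and Ifi44 and Ifi35 encode interferon-induced proteins, of which IFI35 binds NMI. Type I and type III interferons act mainly at interferon-stimulated response elements, and IFN-γ, an NKT cell cytokine, at gamma-activated sites.

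Because such elements lie near the start sites of many genes of this class, the RefSeq windows from 250 bases before to 50 bases after each start site (GRCm38.p6) were searched on both strands for the core GAAANNGAAA of the interferon-stimulated response element and for the palindrome TTCNNNGAA of the gamma-activated site. A window was held for 9 of the 10 genes, all but Usp18. The first core was present in 4 of the 9 genes (44.4%), against 3.99% of 27025 genes with windows of the same length. The second was present in 3 of the 9 (33.3%), against 9.55% of those genes. The 4 windows with the response-element core are shown, 5′ to 3′ on the strand of the gene, with matches to either motif in capitals: Isg15 at chr4:156200769-156201068 (minus strand), Rsad2 at chr12:26456403-26456702 (minus strand), Bst2 at chr8:71537423-71537722 (minus strand) and Eif2ak2 at chr17:78882523-78882822 (minus strand).
Isg15: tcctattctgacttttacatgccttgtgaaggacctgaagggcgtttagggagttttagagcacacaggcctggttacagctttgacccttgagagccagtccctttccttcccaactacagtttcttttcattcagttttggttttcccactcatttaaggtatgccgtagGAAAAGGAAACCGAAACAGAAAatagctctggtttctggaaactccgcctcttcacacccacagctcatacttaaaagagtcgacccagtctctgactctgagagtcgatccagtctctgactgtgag
Rsad2: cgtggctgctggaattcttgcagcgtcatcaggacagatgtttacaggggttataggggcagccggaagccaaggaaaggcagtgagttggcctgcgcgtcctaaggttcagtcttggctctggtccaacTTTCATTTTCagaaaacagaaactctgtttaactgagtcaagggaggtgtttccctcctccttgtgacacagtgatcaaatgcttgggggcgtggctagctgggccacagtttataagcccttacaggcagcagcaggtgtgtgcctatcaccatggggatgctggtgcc
Bst2: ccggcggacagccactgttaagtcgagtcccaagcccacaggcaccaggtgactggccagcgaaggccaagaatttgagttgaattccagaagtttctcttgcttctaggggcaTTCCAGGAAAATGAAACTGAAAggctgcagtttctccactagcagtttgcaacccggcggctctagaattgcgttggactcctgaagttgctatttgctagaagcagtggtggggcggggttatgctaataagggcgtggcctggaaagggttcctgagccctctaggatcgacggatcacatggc
Eif2ak2: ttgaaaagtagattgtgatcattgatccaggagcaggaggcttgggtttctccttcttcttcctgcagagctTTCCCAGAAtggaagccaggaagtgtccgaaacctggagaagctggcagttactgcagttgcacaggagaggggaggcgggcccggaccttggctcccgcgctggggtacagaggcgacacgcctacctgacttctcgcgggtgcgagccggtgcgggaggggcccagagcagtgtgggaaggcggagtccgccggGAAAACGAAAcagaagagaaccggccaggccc
Isg15 held 3 overlapping cores in tandem, from 78 to 57 bases before the start site. In Bst2, a gamma-activated palindrome overlapped the first of 2 tandem cores, so its capitals are 1 run. The Rsad2 match lay on the opposite strand, and Eif2ak2 had its core downstream of the start site and its palindrome upstream of it. Ifi35 held only the palindrome, downstream of its start site, and the windows of Uba7, Ube2l6, Herc6 and Ifi44 held neither set of letters. A match describes the letters of the window and no binding was measured.

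Library totals ran from 8887861 to 32722293 counts, and the smallest was control replicate 3. Epithelial identity was clear in each library: the 10 epithelial markers summed to 135929 to 155717 normalised counts, while Ptprc, which encodes CD45, had 4.42 to 57.9. Of the leukocyte lists, 10 of 14 T and NK cell markers, 7 of 8 B and plasma cell markers and 12 of 14 myeloid and dendritic cell markers had a row, and none of these was at 0 in every library. The T and NK cell markers summed to 31.7 to 38.9 normalised counts in controls, 4.14 to 18.0 in 18h-αGal and 1.47 to 97.3 in 72h-αGal mice, with Cd3e at 0 in all controls. For B and plasma cells the sums were 54.7 to 70.5, 30.5 to 112 and 66.2 to 104, and for myeloid and dendritic cells, mostly Cd68, they were 357 to 608, 453 to 710 and 695 to 895. The myeloid and dendritic cell sums of 72h-αGal mice were thus above those of all controls. Between 18h-αGal mice and controls, the B and plasma cell and the myeloid and dendritic cell sums overlapped. The T and NK cell sums were lower in 18h-αGal mice than in controls, but only 1 of those 10 rows had enough counts to be tested. Endothelial markers (95.1 to 180 in controls, 39.5 to 85.8 at 18 h) and fibroblast markers (34.2 to 59.4 and 5.67 to 13.8) were likewise lower at 18 h. The part of rare leukocytes in the results was not tested. In these bulk samples, fewer cells of a type and less RNA per cell cannot be told apart.

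At 18 h the 10 transcripts had higher fitted means than in controls, and at 72 h their ranges overlapped with those of the controls. Adjusted p-values throughout come from the quasi-likelihood test of edgeR, adjusted over all genes tested by the Benjamini-Hochberg method, and a gene was called where this p was under 0.05. In 18h-αGal against control, 4 of the 10 rose (Usp18, Ube2l6, Bst2 and Eif2ak2) and none fell, where 3.27% of all genes tested rose and 2.69% fell. The median log2 fold change of the 10 genes was 1.80, against -0.03 over all genes tested. All 3 treated mice lay above all 3 controls for 6 of the 10 (the same 4, Isg15 and Ifi44), a pattern seen in 11.5% of all genes. From 18 to 72 h the same 4 genes fell, where 6.04% of all genes fell and 4.18% rose, and the median was -2.47 against 0.05 over all genes. Each of the 10 was lower in every 72h-αGal mouse than in every 18h-αGal mouse, as were 16.3% of all genes. Since the 18h-αGal mice are in both comparisons, and the controls in the comparisons at both times, the values of each are given side by side and no overlap between them is tested.

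**Figure D1:**
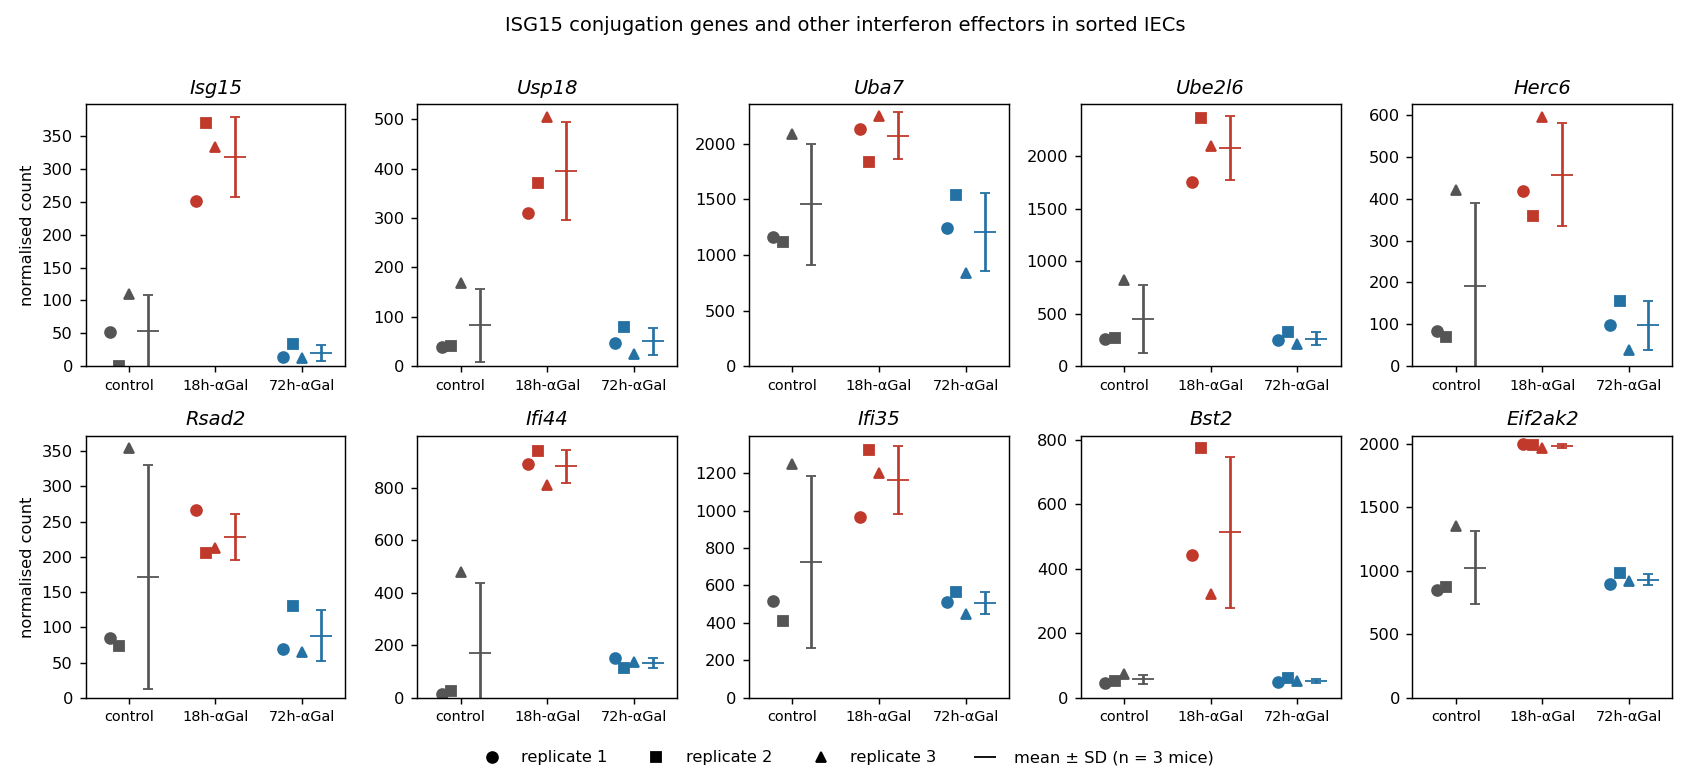
Normalised counts of the 10 genes (vertical axes, each from 0) in control, 18h-αGal and 72h-αGal mice. Symbols are single mice by replicate number and bars are mean ± SD (n = 3), cut off at 0; control replicate 3 is the highest control in each panel and the 72h-αGal mice lie below all 18h-αGal mice.

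The modifier itself, Isg15 (ENSMUSG00000035692, chr4:156199424-156200818), had 52.9, 0 and 109 normalised counts in control replicates 1, 2 and 3. It had 251, 370 and 333 in the 18h-αGal mice and 13.9, 34.3 and 12.5 in the 72h-αGal mice. The 18h-αGal mice stood apart from both other groups, whereas control and 72h-αGal mice overlapped. Control replicate 2 had no Isg15 read in a library of 19308214 counts, which allows up to 2.85 normalised counts (3 reads, counting error only), although the other 9 transcripts were all detected there. The log2 fold change at 18 h was 2.66 ± 1.06 (SE), which missed the threshold (edgeR adjusted p = 0.205). Without control replicate 2 it was 2.04 and passed (edgeR adjusted p = 0.0262). From 18 to 72 h the log2 fold change was -3.97 ± 1.13 (edgeR adjusted p = 0.0693).

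Usp18 (ENSMUSG00000030107, chr6:121245906-121270917), the deconjugating protease, had 39.9, 41.8 and 169 normalised counts in controls. The 18h-αGal mice had 310, 371 and 505, and the 72h-αGal mice 46.3, 79.7 and 25.8. No 18h-αGal mouse overlapped with either other group. Usp18 rose 5.10-fold at 18 h (log2 fold change 2.35 ± 0.56, edgeR adjusted p = 0.0316) and fell by 2.97 ± 0.57 on the log2 scale from 18 to 72 h (edgeR adjusted p = 0.00797). The call at 18 h was lost with no filter and without control replicate 1 or 2, any 1 of the 18h-αGal mice or 72h-αGal replicate 1, with adjusted p-values of edgeR up to 0.112.

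Along the cascade, the log2 fold changes of the E1, E2 and E3 at 18 h ran from 0.53 to 2.26. The difference between these genes was not tested. Uba7 (ENSMUSG00000032596, chr9:107975567-107984056) had 1164, 1116 and 2083 normalised counts in controls, 2128, 1838 and 2244 in 18h-αGal mice and 1241, 1538 and 836 in 72h-αGal mice. Its 18h-αGal values lay around that of control replicate 3 and above those of controls 1 and 2. The log2 fold changes were 0.53 ± 0.26 at 18 h (edgeR adjusted p = 0.276) and -0.78 ± 0.26 from 18 to 72 h (edgeR adjusted p = 0.0862). Ube2l6 (ENSMUSG00000027078, chr2:84798828-84810003) had 261, 265 and 825 in controls, against 1757, 2366 and 2101 at 18 h. At 72 h it had 253, 327 and 209, so that the 18h-αGal mice again overlapped with neither other group. This E2 transcript rose 4.79-fold at 18 h (log2 fold change 2.26 ± 0.45, edgeR adjusted p = 0.0258) and fell by 2.98 ± 0.46 from 18 to 72 h (edgeR adjusted p = 0.00684). Its call at 18 h was lost under the same 7 alternatives as that of Usp18 and with only 2 groups in the fit, with adjusted p-values of edgeR up to 0.0916. Herc6 (ENSMUSG00000029798, chr6:57580992-57665136) had 85.2, 70.2 and 421 normalised counts in controls, 419, 358 and 595 at 18 h, and 98.5, 156 and 39.7 at 72 h. Only 1 of the 3 18h-αGal mice was above control replicate 3. Its log2 fold changes were 1.33 ± 0.74 at 18 h (edgeR adjusted p = 0.371) and -2.22 ± 0.76 from 18 to 72 h (edgeR adjusted p = 0.118).

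Bst2 and Eif2ak2 had the most even controls. Bst2 (ENSMUSG00000046718, chr8:71534255-71537472), the gene of tetherin, had 47.0, 51.3 and 73.7 normalised counts in controls, 441, 775 and 323 in 18h-αGal mice and 48.7, 60.5 and 51.5 in 72h-αGal mice. The lowest 18h-αGal mouse was far above the highest control, and the 72h-αGal mice lay within the span of the controls. Bst2 rose 9.26-fold at 18 h (log2 fold change 3.21 ± 0.34, edgeR adjusted p = 0.000124) and fell by 3.25 ± 0.34 afterwards (edgeR adjusted p = 7.99e-05). Eif2ak2 (ENSMUSG00000024079, chr17:78850504-78882572), the gene of PKR, had 845, 875 and 1353 in controls. It had 1992, 1988 and 1963 in the 18h-αGal mice, with the smallest spread of the 10 genes at 18 h (1981 ± 15.6, SD, n = 3), and 893, 980 and 917 at 72 h. Its rise was 1.96-fold (log2 fold change 0.97 ± 0.16, edgeR adjusted p = 0.00285), and it fell by 1.08 ± 0.16 from 18 to 72 h (edgeR adjusted p = 0.0011). Both genes were called at 18 h under each of the 15 alternatives tried, with log2 fold changes of 2.78 to 3.46 for Bst2 and 0.85 to 1.21 for Eif2ak2.

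The other 3 effectors had controls that spread widely. Rsad2 (ENSMUSG00000020641, chr12:26442743-26456452), the gene of viperin, had 84.6, 74.0 and 354 normalised counts in controls, 266, 206 and 212 in 18h-αGal mice and 69.5, 130 and 64.8 in 72h-αGal mice. Control replicate 3 was above the other 8 mice. The log2 fold change was 0.48 ± 0.52 at 18 h (edgeR adjusted p = 0.668) and -1.37 ± 0.53 from 18 to 72 h (edgeR adjusted p = 0.131). Ifi44 (ENSMUSG00000028037, chr3:151730922-151749910) had 12.9, 26.6 and 478 in controls, 893, 940.5 and 813 at 18 h, and 152, 112 and 136 at 72 h. The 18h-αGal mice overlapped with no other group, and the 72h-αGal mice lay between control replicate 3 and the other controls. Its log2 fold changes of 2.54 ± 1.23 at 18 h (edgeR adjusted p = 0.313) and -2.72 ± 1.21 from 18 to 72 h (edgeR adjusted p = 0.236) carried the largest standard errors of the 10 genes. Ifi35 (ENSMUSG00000010358, chr11:101448412-101458701) had 514, 409 and 1251 in controls, 965, 1322 and 1202 at 18 h, and 512, 564 and 447 at 72 h. Only 1 of the 3 18h-αGal mice exceeded control replicate 3. Its log2 fold changes were 0.72 ± 0.35 at 18 h (edgeR adjusted p = 0.291) and -1.19 ± 0.36 from 18 to 72 h (edgeR adjusted p = 0.0658).

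Control replicate 3 was the highest control for all 10 genes, as it was for 36.8% of all genes tested and for 45 of 49 other interferon-stimulated genes. Relative to the mean of controls 1 and 2 it had 24.2 times as many normalised counts of Ifi44, 5.42 times of Herc6, 4.47 times of Rsad2, 4.14 times of Isg15, 4.13 times of Usp18 and 3.14 times of Ube2l6. Ifi35 (2.71 times), Uba7 (1.83), Eif2ak2 (1.57) and Bst2 (1.5) differed less. By the same measure the 18h-αGal means were 44.7 times for Ifi44, 12.03 for Isg15 and 10.4 for Bst2. They were 9.68 times for Usp18, 7.89 for Ube2l6, 5.89 for Herc6 and 2.30 for Eif2ak2. The 18h-αGal means of Rsad2 (2.88 times), Ifi35 (2.52) and Uba7 (1.82) were below control replicate 3. Bst2 thus had the smallest of these ratios in that control and a ratio of 10.4 in the 18h-αGal mice. Both ratios of Isg15 rest on a mean of 52.9 and 0 and would be lower against control replicate 1 alone. Every 72h-αGal mouse was below control replicate 3 for each of the 10 genes. Some markers of epithelial maturity also differed between these libraries, and no correlation with the 10 genes was computed. Krt20, a keratin of differentiated cells, had 7729 normalised counts in control replicate 3 against 3566 and 2804 in controls 1 and 2, 5974 to 7901 in 18h-αGal mice and 1314 to 3944 in 72h-αGal mice. Lgr5, a stem cell marker, had 932 in that control against 2424 and 3241 in the others, 411 to 1564 at 18 h and 1931 to 3154 at 72 h. The part of cell maturity in the levels of the 10 genes was not tested. In that control the myeloid and dendritic cell markers summed to 357 normalised counts, the lowest of the 9 libraries, the T and NK cell markers to 38.0, the B and plasma cell markers to 54.7 and the fibroblast markers to 59.4, the highest of the 9. The part of these cells in its values was not tested.

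**Figure D2:**
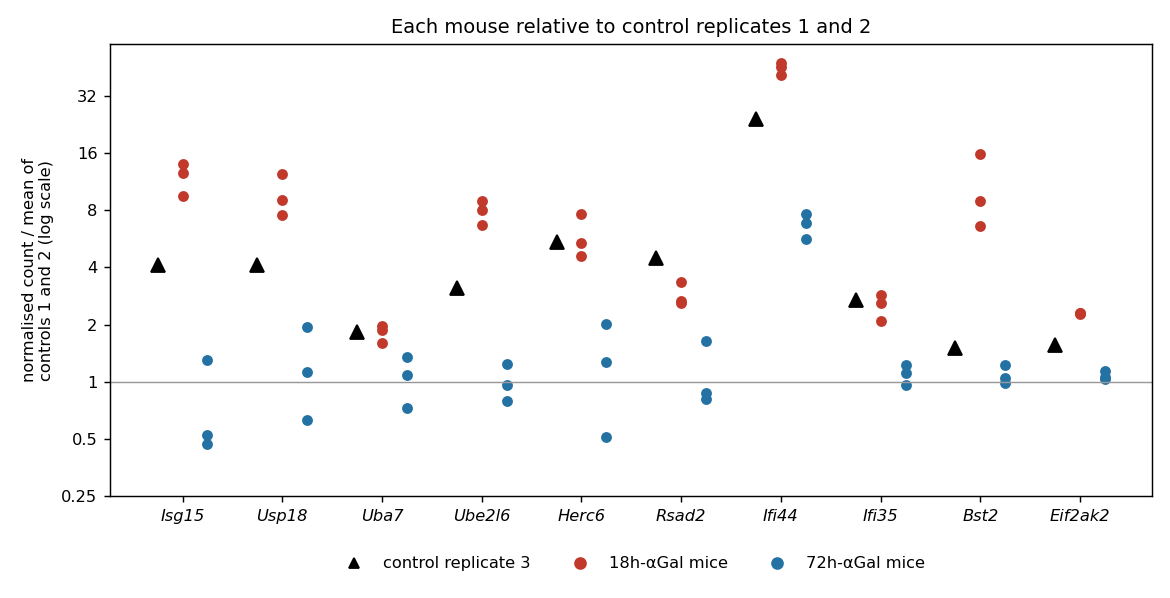
Normalised counts of control replicate 3 (triangles), 18h-αGal mice (red) and 72h-αGal mice (blue), divided by the mean of control replicates 1 and 2 (log axis, line at 1). Control replicate 3 is 24.2 times that mean for Ifi44 and above all 18h-αGal mice for Rsad2, while for Bst2 it is 1.5 times.

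When control replicate 3 was left out, 9 of the 10 genes were called higher at 18 h, where 4.25% of all genes tested were, and the median log2 fold change was 2.76. Ifi44 then had a log2 fold change of 5.54 ± 0.33 (edgeR adjusted p = 3.98e-08), Herc6 2.55 ± 0.46 (edgeR adjusted p = 0.00403), Rsad2 1.52 ± 0.37 (edgeR adjusted p = 0.0189), Ifi35 1.33 ± 0.19 (edgeR adjusted p = 0.000415) and Uba7 0.86 ± 0.20 (edgeR adjusted p = 0.0148). Isg15, with 52.9 and 0 in the remaining controls, was the exception at 3.50 ± 1.17 (edgeR adjusted p = 0.139). Leaving out control replicate 1, 18h-αGal replicate 1, 2 or 3, or 72h-αGal replicate 1 instead gave 2 called genes, while 228 to 625 of the 19786 to 20377 genes tested were called higher, against 619 of 18933 in the fit of all libraries. Usp18 and Ube2l6 were called at 18 h under 8 and 7 of the 15 alternatives, respectively.

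The fall from 18 to 72 h can be examined without any control. In a fit of those 2 groups alone, all 10 genes were called lower, where 7.93% of all genes tested were. The adjusted p of edgeR ranged from 3.80e-06 for Ube2l6 to 0.0175 for Uba7. Fold changes were near those of the fit of all 9 libraries, at -3.97 ± 0.40 for Isg15, -2.22 ± 0.41 for Herc6, -2.72 ± 0.18 for Ifi44 and -0.77 ± 0.18 for Uba7, so the standard errors differed and not the sizes. Usp18, Ube2l6, Bst2 and Eif2ak2 were called lower under all 15 alternatives. For 7 of the 10 genes (Isg15, Usp18, Uba7, Ube2l6, Herc6, Rsad2 and Ifi35), 72h-αGal replicate 3 was the lowest of its group, and it also had the lowest Krt20 of the 9 libraries.

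**Figure D3:**
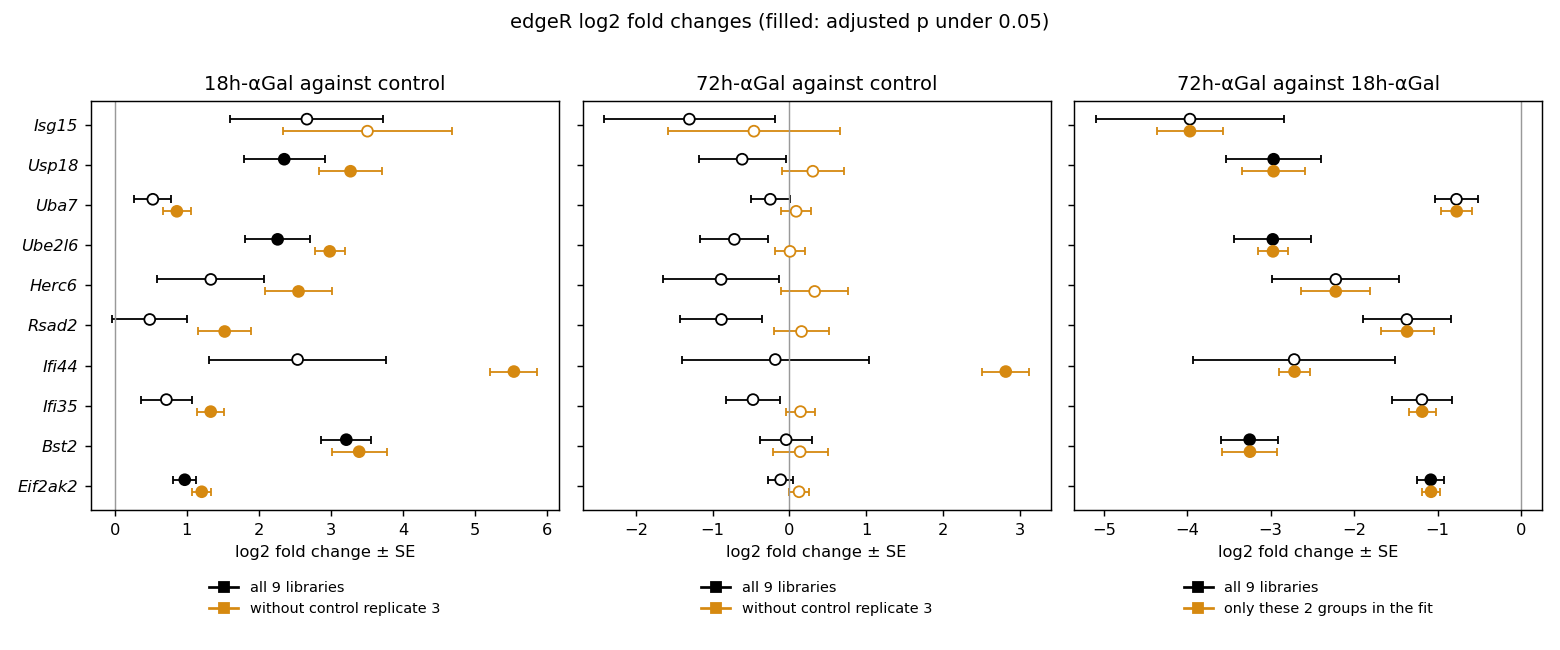
Log2 fold changes ± SE (horizontal axes) of the 10 genes by edgeR, with filled symbols for adjusted p under 0.05. Black is the fit of all 9 libraries; orange leaves out control replicate 3 (left and middle panels, with 9 and 1 genes called) or uses only the 18h-αGal and 72h-αGal mice (right panel, with 10 called).

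In 72h-αGal against control, none of the 10 genes was called by edgeR, and 0.0264% of all genes were in either direction. None had an unadjusted p under 0.05, and DESeq2, which gave no p for Ifi44, called 0 of the other 9. The log2 fold changes ran from -1.30 for Isg15 to -0.04 for Bst2, with a median of -0.54 against 0.00 over all genes. The ranges of the groups overlapped for all 10, whereas 12.7% of all genes had ranges that did not. With SEs of 0.16 for Eif2ak2 to 1.22 for Ifi44, the precision differed widely between genes. These negative values rested on control replicate 3: without it, 9 of the 10 log2 fold changes were above 0, from 0.01 for Ube2l6 to 2.82 for Ifi44, and Isg15 was at -0.46. Ifi44 was then called higher at 72 h than in the 2 remaining controls (2.82 ± 0.31, edgeR adjusted p = 0.000498), the only one of the 10, where 0.0984% of all genes were called in either direction.

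Per exon length, as TPM, a share of all transcripts corrected for length, the order of the genes changed between groups. The length was that of all annotated exons of a gene together, not of 1 transcript. In controls the highest mean levels were those of Uba7 (42.1 ± 11.9 TPM, SD, n = 3), Eif2ak2 (36.7 ± 7.19), Ifi35 (36.2 ± 19.6) and Ube2l6 (30.5 ± 19.3). These neighbours did not differ beyond their spread, and they were followed by Isg15 (12.8 ± 12.6), Bst2 (9.22 ± 1.63), Rsad2 (7.40 ± 6.29), Ifi44 (5.09 ± 7.66), Usp18 (4.84 ± 3.88) and Herc6 (3.43 ± 3.29). At 18 h Ube2l6 led with 146 ± 22.4 TPM, and its lowest mouse (127) was above 2 of the 3 Bst2 values (49.7, 73.9 and 129). Bst2 (84.3 ± 40.8), Isg15 (80.2 ± 15.3), Eif2ak2 (72.0 ± 3.90), Uba7 (60.9 ± 4.75) and Ifi35 (60.1 ± 9.43) followed. Among these, the lowest Eif2ak2 mouse (67.5) was above the highest Uba7 mouse (64.6), and the other neighbours overlapped. Ifi44 (28.4 ± 3.27) and Usp18 (23.9 ± 4.87) formed a lower level, with Rsad2 (10.4 ± 1.80) and Herc6 (8.59 ± 1.89) below it. By this measure the E2 of the ISG15 cascade had the highest mean of the 10 at 18 h and its ligase the lowest, within the spread of Rsad2. The place of the ligase depends on the length used, 10434 bases for Herc6 against 4335 for Rsad2. Before that division Herc6 had the higher mean of normalised counts at 18 h (457 against 228). At 72 h the first 4 were Uba7 (36.2 ± 9.24), Eif2ak2 (34.7 ± 1.17), Ifi35 (26.9 ± 2.03) and Ube2l6 (18.9 ± 3.51), as in controls, and Herc6 (1.88 ± 1.06) was again the lowest.

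**Figure D4:**
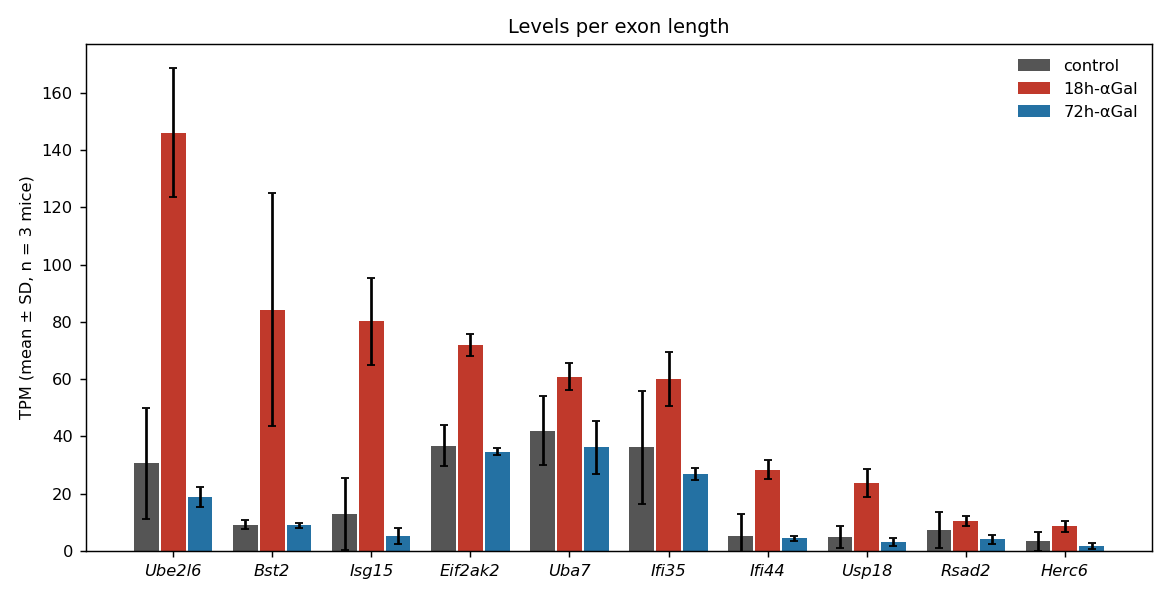
Mean TPM ± SD (vertical axis from 0; n = 3 mice) of the 10 genes in control (grey), 18h-αGal (red) and 72h-αGal (blue) mice, ordered by the 18h-αGal mean. Ube2l6 is highest at 18 h (146 TPM) and Uba7 highest in control and 72h-αGal mice.

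Some reads may belong to neighbours. Isg15 shares 31.1% of its exon length with Gm46878 on the opposite strand, Ifi35 16.3% with Vat1 and 8.25% with Gm11626, Ube2l6 11.4% with Smtnl1 and 12.3% with Gm75306, and Herc6 12.2% with Gm45193 on the same strand. The library kit keeps strand, but the strand setting of the counting is not given in the sources used here. Vat1 had 2440, 1758 and 2183 normalised counts on average in control, 18h-αGal and 72h-αGal mice, and Smtnl1 had at most 22 reads in any library. Usp18, Rsad2, Ifi44 and Bst2 shared no stretch of 50 bases with another annotated transcript, against 11.04% of such stretches for Herc6, 5.81% for Ube2l6 and 3.38% for Isg15.

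A list of other interferon-stimulated genes was examined beside the 10. Of 50 listed, 49 were tested (Ifitm1 had too few counts). At 18 h 13 rose and 0 fell, with a median log2 fold change of 1.14, where 3.27% of all genes rose and 2.69% fell. Among the largest were Ifit2, which encodes a translation inhibitor (log2 fold change 3.43 ± 0.52, edgeR adjusted p = 0.0024), Mx1, an antiviral GTPase (1.99 ± 0.50, edgeR adjusted p = 0.0288), and Ifitm3, which blocks viral entry (1.74 ± 0.32, edgeR adjusted p = 0.0137). Nmi, whose product binds IFI35, rose by 1.03 ± 0.25 (edgeR adjusted p = 0.0226), while Cmpk2, the neighbour of Rsad2, was at 0.71 ± 0.27 (edgeR adjusted p = 0.15) and Trim25, a ubiquitin and ISG15 ligase, at 0.24 ± 0.15 (edgeR adjusted p = 0.39). The count of 13 was 37 without control replicate 3, 5 without control replicate 1, 8 without control replicate 2 and 7 without 18h-αGal replicate 2. Over all genes, those fits called 864, 251, 375 and 228 higher, against 619 in the fit of all libraries. From 18 to 72 h, 19 of the 49 fell and 0 rose, where 6.04% of all genes fell and 4.18% rose. Zbp1, a nucleic acid sensor, fell by 3.33 ± 0.77 (edgeR adjusted p = 0.0447), and the log2 fold changes of Ifit2 (-2.58 ± 0.49) and Mx1 (-2.51 ± 0.50) also passed the test. Nmi fell by 1.18 ± 0.25 (edgeR adjusted p = 0.00746) and Cmpk2 fell by 1.02 ± 0.27 (edgeR adjusted p = 0.0307), with Trim25 at -0.31 ± 0.15 (edgeR adjusted p = 0.221). The 19 became 35 without control replicate 3, 11 without 72h-αGal replicate 1 and 12 without 72h-αGal replicate 3. Over all genes, those fits called 1523, 676 and 495 lower, against 1144 in the fit of all libraries. In 72h-αGal against control, 0 of the 49 were called by edgeR and 0 had an unadjusted p under 0.05.

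Related ubiquitin-like systems were examined in the same way. The list held enzymes, modifiers and proteases of ubiquitin, SUMO, NEDD8, UFM1 and FAT10, and Atg7, Atg12, Urm1 and Fau from other ubiquitin-like systems. Of 36 listed, 35 were tested (Usp13 had no row), with a median log2 fold change of 0.28 at 18 h. Ube2m, the E2 of NEDD8 (0.66 ± 0.12, edgeR adjusted p = 0.00629), Sae1, a subunit of the SUMO E1 (0.62 ± 0.14, edgeR adjusted p = 0.0183), and Ube2l3, the closest relative of Ube2l6 (0.47 ± 0.11, edgeR adjusted p = 0.0225), rose, and 0 fell. The 3 that rose were 8.57% of the 35, against 3.27% of all genes. Arih1, a ligase that works with UBE2L3, was at 0.33 ± 0.10 (edgeR adjusted p = 0.0685). Ubd, the gene of FAT10, another cytokine-induced ubiquitin-like modifier, was at 4.10 ± 1.58 (edgeR adjusted p = 0.17), with means of 7.92 normalised counts in controls, 94.1 in 18h-αGal and 7.36 in 72h-αGal mice. The 3 calls became 7 without control replicate 3, 5 without 18h-αGal replicate 3, and 1 without control replicate 1 or 18h-αGal replicate 2. Those fits called 864, 625, 251 and 228 of all genes higher. From 18 to 72 h, 10 fell and 0 rose, where 6.04% of all genes fell and 4.18% rose. The largest falls were those of Senp8, the NEDD8 protease (-1.18 ± 0.26), Ufc1, the E2 of UFM1 (-1.01 ± 0.22), and Nedd8, a modifier (-0.76 ± 0.17). Ube2l3 fell by 0.61 ± 0.11 (edgeR adjusted p = 0.00371), while Arih1 was at -0.27 ± 0.10 (edgeR adjusted p = 0.115) and Ubd at -3.70 ± 1.46 (edgeR adjusted p = 0.153). Without 18h-αGal replicate 2 the 10 became 5, and 573 of all genes were called lower. In 72h-αGal against control, 0 of the 35 were called by edgeR and 2 had an unadjusted p under 0.05.

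Among the eIF2α kinases, Eif2ak2 was the only 1 of 4 called at 18 h. Eif2ak1, the heme-regulated kinase, was at -0.06 ± 0.13 (edgeR adjusted p = 0.858), Eif2ak3, the endoplasmic reticulum stress kinase PERK, at 0.19 ± 0.16 (edgeR adjusted p = 0.556) and Eif2ak4, the amino acid sensor GCN2, at -0.10 ± 0.24 (edgeR adjusted p = 0.868). The difference between the kinases was not tested. Of 22 listed genes of eIF2 and its stress pathway, 2 rose at 18 h, Dnajc3, a chaperone and inhibitor of PKR and PERK (0.78 ± 0.12, edgeR adjusted p = 0.00212), and Eif2s1, which encodes eIF2α (0.63 ± 0.11, edgeR adjusted p = 0.00516). Ppp1r15a, which directs the phosphatase to eIF2α, fell by 0.56 ± 0.14 (edgeR adjusted p = 0.0241). The median of the list was 0.18. The 2 that rose were 9.09% of the 22, against 3.27% of all genes, and 2.69% of all genes fell. From 18 to 72 h Dnajc3 fell by 0.75 ± 0.12, Eif2s1 fell by 0.65 ± 0.11 and Eif2s3x, another eIF2 subunit gene, fell by 0.49 ± 0.13, while Ppp1r15a rose by 0.53 ± 0.14 (edgeR adjusted p = 0.0225). Over all genes, 6.04% fell and 4.18% rose from 18 to 72 h. The 4 calls in the list became 2 without 18h-αGal replicate 1, 18h-αGal replicate 2 or 72h-αGal replicate 3. Those fits called 843, 573 and 495 of all genes lower and 660, 367 and 336 higher. In 72h-αGal against control, 0 of the 22 were called by edgeR and 0 had an unadjusted p under 0.05.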

How the data were processed

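RNA of sorted IECs from 9 mice was ribodepleted, prepared with a directional kit and sequenced as 100 bp reads. The submitters' processing notes name HISAT2, featureCounts of Subread and DESeq2 1.42.0, with the build GRCm38 (mm10), while the study's methods name GRCm39, so coordinates are those of RefSeq on GRCm38.p6 and no position was converted. The authors deposited raw read counts per gene and a normalised signal, which equals the deposited counts divided by 1 size factor per library (largest relative difference 5.89e-15). Of 29288 Ensembl identifiers, 28480 matched GENCODE vM39, which gave symbols, exon lengths and overlaps, and the 808 others held 1.56% of the counts.

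Raw counts were tested with edgeR 4.0.16 (R 4.3.3): low-count filter, TMM scaling, a robust quasi-likelihood model with 1 mean per group over 9 libraries, two-sided, Benjamini-Hochberg over 18933 genes, called under 0.05. Values per mouse are the deposited normalised counts. TPM values were computed from the raw counts and the length of all annotated exons of each matched gene. Library totals of 8887861 to 32722293 counts set the precision of low transcripts. Floors cover counting error only. The labels do not tie same-numbered mice to each other. The 15 alternatives were other scaling, no filter, no robust fit, DESeq2 1.42.0, 2 groups per fit, a replicate block and each mouse left out. The fit was tested on simulated data. The genes and lists were chosen with earlier results of these data known. From the lists, partners and paralogs of the 10 genes and up to 4 called genes with the largest log2 fold change per comparison are named, apart from items that are not reported here.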

Additional observations from a re-analysis of the deposited data

Results flagged for a closer look

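For 4 of the 10 genes the level differed between the 2 sampling times in αGalCer mice, by the test of 72h-αGal against 18h-αGal (edgeR, Benjamini-Hochberg adjusted). The log2 difference between the times was -2.97 for Usp18 (adjusted p = 0.00797), -2.98 for Ube2l6 (adjusted p = 0.00684), -3.25 for Bst2 (adjusted p = 7.99e-05) and -1.08 for Eif2ak2 (adjusted p = 0.0011). All 3 72h-αGal mice were below all 3 18h-αGal mice for each of them. The controls were sampled at 18 h, and no control labelled 72 h was analysed here. A change in the response to αGalCer and an effect of sampling time therefore cannot be told apart.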

How the results depend on the processing

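Bst2 and Eif2ak2 kept their calls at 18 h, and Usp18, Ube2l6, Bst2 and Eif2ak2 theirs from 18 to 72 h, under all 15 alternatives. No log2 fold change of the 10 genes changed sign in those 2 comparisons. At 18 h the number of the 10 called (4) was 2 with no filter and 2 to 9 with 1 mouse left out, and their median 1.43 to 2.76. The 13 other interferon-stimulated genes called became 5 to 37 with 1 mouse left out, and the 3 ubiquitin-like relatives 1 to 7, with 6 under no filter and 6 under DESeq2. From 18 to 72 h the 4 of 10 became 7 without the robust fit, 9 with DESeq2 (which gave no p for Ifi44), 10 with only those 2 groups and 4 to 9 with 1 mouse left out. The 19 interferon-stimulated genes became 35 with only those 2 groups and 11 to 35 with 1 mouse left out, the 10 ubiquitin-like relatives 5 to 13 and the 4 eIF2 genes 2 to 5. For 72h-αGal against control, 0 to 1 of the 10 were called with 1 mouse left out. Without control replicate 3 9 of these log2 fold changes turned positive. With 1 mouse left out they ran from -1.11 to 0.306 for Usp18, -0.458 to 0.0886 for Uba7, -1.001 to 0.00856 for Ube2l6, -1.41 to 0.329 for Herc6, -1.27 to 0.159 for Rsad2, -0.815 to 2.82 for Ifi44, -0.753 to 0.145 for Ifi35, -0.168 to 0.141 for Bst2 and -0.230 to 0.127 for Eif2ak2, each upper value being the one without that control. Bst2 was at 0.0238 without 72h-αGal replicate 1. The cause was not tested. With 1 mouse left out, the 619 higher and 509 lower of all genes at 18 h ranged from 228 and 204 without 18h-αGal replicate 2 to 864 and 692 without control replicate 3. With no filter, 826 of 29288 genes were called higher at 18 h and 701 lower. With DESeq2 they were 803 and 917 of 20735. From 18 to 72 h, 792 higher and 1144 lower ranged from 336 and 495 without 72h-αGal replicate 3 to 1070 and 1523 without control replicate 3. In that comparison 1101 were lower without the robust fit, 1442 with DESeq2 and 1412 with only those 2 groups.

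In the labels, same-numbered mice share only a number. Their deviations correlated at -0.15 to 0.11 over 9 pairs, and with 3 mice per group these values cannot decide whether such mice were handled together. With a replicate block, 4, 0 and 4 of the 10 genes were called in the 3 comparisons (medians 1.93, -0.41 and -2.44), and Ifi44 at 72 h against control was at 0.63. Of all 18933 genes, that fit called 443 higher and 338 lower at 18 h. It called 0 higher and 1 lower at 72 h against control, and 556 higher and 815 lower from 18 to 72 h. Nothing in the labels says more than that the mice are separate, so p-values rest on the spread between mice, 3 per group. In the fit of 9 libraries that spread is estimated over all 3 groups together, also where only 2 are compared. Depth limits low transcripts most in control replicate 3, where 3 reads are 7.13 normalised counts.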

Other observations

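Over the 9 libraries, the genes whose log2 CPM (read counts scaled to library size) ran most like those of Isg15 included Nsf (Pearson r = 0.976), Smndc1 (0.976), Gnl1 (0.962) and C1galt1c1 (0.957), none of them among the 10 genes. The other 9 of the 10 ran from 0.751 for Ifi44 to 0.887 for Ifi35, and 142 of 18923 other genes had a higher r than Ifi35. These values describe 9 libraries of 3 groups, and the absence of Isg15 reads in control replicate 2 weighs in each of them.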
